A study of Mus musculus with 12 samples.

Results

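Conventional type 2 dendritic cells (cDC2) of the neonatal mouse liver were examined in single-cell RNA-seq (scRNA-seq) data, and 568 of 202557 kept cells were cDC2 by the rule used here, 252 of 96110 in control mice and 316 of 106447 in mice with phlebotomy-induced anemia (PIA). A kept cell was a barcode with 500 to 50000 unique molecular identifiers (UMIs, each standing for 1 captured transcript) and at most 20% mitochondrial UMIs. A cDC2 was a kept cell with at least 5 UMIs of the major histocompatibility complex (MHC) class II genes H2-Ab1, H2-Aa and Cd74 together and at least 2 UMIs of Flt3, Cd209a, Mgl2 and Clec10a together. It also had no UMI of Xcr1 or Clec9a, of Siglech, of Cd79a, Ms4a1 or Cd3e, or of Stab2, and at most 1 UMI of C1qa, C1qb and C1qc. The cells were thus chosen by the measured UMIs of these 17 genes, which are given as description, with no test result.

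The study asked how PIA changes the immune cells of the neonatal liver. Pups of both groups were C57BL6/J mice nursed by their dams and assigned at random within litters, with 6 mice per group and 1 library of the dissociated whole liver per mouse. PIA pups lost 20 µL of blood per g of body weight at each facial vein bleed from postnatal day (P) 2 to P10, which brought the hematocrit to 20 to 24%, and control pups of the same age received a needle stick without blood loss. Livers were taken at P11, every library carried the same batch date, and the labels name no sorting of cells before loading. Cells had been pelleted at low speed after digestion, so the cells studied are those that survived dissociation and this step.

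Dendritic cells take up antigen in tissues, load peptides on MHC molecules and prime T cells. Conventional dendritic cells depend on the cytokine receptor Flt3 and fall into cDC1, which rely on Irf8 and Batf3 and present antigen to CD8+ T cells, and cDC2, which often carry Sirpa, Irf4 and C-type lectins and favour CD4+ T cells, whereas plasmacytoid dendritic cells (pDC) are specialised for type I interferon. On maturation, dendritic cells raise Ccr7, the receptor that guides them to lymph nodes, and Fscn1, an actin-bundling protein, together with chemokines and costimulatory molecules.

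The libraries held 46252146 to 74545930 UMIs, with a median of 1776 to 2909 per kept cell. The cDC2 were deeper, with a median of 3601 to 5404 per cell in controls and 4120 to 5284 in anemia, and their summed UMIs per mouse ranged from 155213 to 393044. Classical monocytes made up 14.9% of the kept cells of anemia mouse 2 and 4.99% of anemia mouse 3, against at most 1.15% in any control. A doublet caller, set to the rate expected for the number of cells loaded, marked 11.1 to 16.8% of kept cells per library, but 17.1 to 87.2% of the cDC2, 3.42 to 16.1% of the cDC1 and 4.57 to 21.3% of the pDC. With the caller's own threshold the share of cDC2 was 0 to 5.41%. The calls were therefore not used to remove cells, and the shares and the comparison of genes between groups were also computed without called doublets. Leaving them out left 5 to 46 cDC2 per mouse. Of the member barcodes, 23 also occurred in another library, none of them as a member there.

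Within the cDC2, Cd74, the invariant chain of MHC class II, had a median of 199.5 UMIs per cell and was found in every cell. H2-Aa was found in 94.5% and H2-Ab1 in 85.9%. Flt3 was found in 64.6% of the cDC2, the lectin Cd209a in 57.0%, Clec10a in 30.8% and Mgl2, its close relative, in 19.4%. Reads of Clec10a and Mgl2 can be hard to assign because the genes are similar in sequence. The rule set these shares, at a median of 4469 UMIs per cDC2, so they carry no weight for the identity of the cells. For comparison with cells that should lack the genes, in 33027 cells with at least 10% hemoglobin UMIs (median 1334 UMIs) Flt3 was found in 0.318% and Cd209a in 0.0696%, and in 9216 cells with at least 2 Cd3e UMIs (median 2669) in 0.467% and 0.0977%. In 21932 cells with at least 3 UMIs of Cd79a and Ms4a1 (median 2168), Flt3 was found in 1.82% and Clec10a in 0.305%.

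The marker threshold fell within a continuous range of values. Just inside it, 182 cDC2 had a marker sum of 2 and a median MHC class II sum of 168 UMIs, and 386 had a sum of 3 or more. Just outside it, 387 cells that met every other condition had a sum of 1 and a median MHC class II sum of 122. Few cells lay near the MHC class II threshold, with 14 cells at a sum of 5 or 6 inside and 28 at 3 or 4 outside. The C1q condition kept 91 cells with 1 UMI and left out 8 with 2. The larger exclusions were the 703 cells with an Xcr1 or Clec9a UMI and the 537 with a Siglech UMI that met all other conditions.

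To place the cDC2 among related cells, their summed UMIs were compared within each mouse with those of 1680 cDC1 (at least 2 UMIs of Xcr1 and Clec9a), 2325 pDC (at least 2 UMIs of Siglech) and 5194 classical monocytes (at least 2 UMIs of Ccr2 and Ly6c2 with at least 1 of Csf1r, Fcgr1 and F13a1). The cDC1 also needed 5 MHC class II UMIs, and the monocytes had no UMI of Flt3, Cd209a, Mgl2 or Clec10a and at most 1 of Elane, Mpo, Ngp and Camp. Apart from its own markers, each class met the limits given for cDC2 on Xcr1 and Clec9a, Siglech, B and T cell genes, Stab2 and C1q genes. Genes that a rule used were fitted with the others and enter the counts over all tested genes. Tests are given, and lists counted, only for genes that neither rule used, although the classes were set from UMIs of the same cells. Unless stated, a class level is in CPM (UMIs scaled to the total UMIs of the class), as mean ± SD over 12 mice. For log2 differences and log2 fold changes, here and below, ± is a standard error derived from the edgeR test statistic.

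Outside the genes of the rule, the cDC2 carried other defining genes of conventional dendritic cells at levels that differed from those of the other classes. Sirpa, an inhibitory receptor of myeloid cells, stood at 152 ± 26.0 CPM in cDC2 and 7.86 ± 6.32 in cDC1, a log2 difference of 4.10 ± 0.23 (edgeR quasi-likelihood test, adjusted p = 1.32e-12). It was lower in cDC2 than in classical monocytes, where it stood at 332 ± 48.0 CPM (log2 difference -1.07 ± 0.11, edgeR adjusted p = 2.92e-08). Irf4, a transcription factor of cDC2, stood at 40.8 ± 16.5 normalised CPM (per tested genes) against 6.36 ± 4.29 in cDC1, a log2 difference of 2.75 ± 0.30, and was higher than in monocytes by 3.95 ± 0.36 (edgeR adjusted p = 6.82e-08 and 6.94e-09). Zbtb46, a transcription factor of conventional dendritic cells, set cDC2 apart from pDC and monocytes, with 148 ± 47.5 CPM against 3.66 ± 4.09 and 3.25 ± 2.66, but its level of 103 ± 17.4 in cDC1 did not differ past the threshold (log2 difference 0.34 ± 0.14, edgeR adjusted p = 0.0531). Against pDC, however, Sirpa and Irf4 were lower in cDC2, at log2 differences of -0.48 ± 0.10 and -0.52 ± 0.18 (edgeR adjusted p = 0.000349 and 0.0158). Itgax, which encodes CD11c, was lower than in cDC1, at a log2 difference of -0.54 ± 0.12, and higher than in pDC and monocytes, at 0.84 ± 0.11 and 3.33 ± 0.19 (largest edgeR adjusted p of the 3, 0.000648). Defining genes of the other classes were lower in cDC2 than in those classes but not at 0, and Wdfy4 and Tcf4 stood above Sirpa and Irf4, with Wdfy4, needed for cross-presentation by cDC1, at 252 ± 75.8 CPM against 997 ± 112 in cDC1, Batf3 at 75.3 ± 17.8 against 135 ± 15.4 in cDC1, Tcf4 at 245 ± 118 against 4246 ± 344 in pDC, Grm8 at 28.8 ± 31.3 against 1439 ± 209 in pDC, and F13a1 at 12.5 ± 9.46 against 473 ± 167 in monocytes, whose rule used it.

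**Figure D1:**
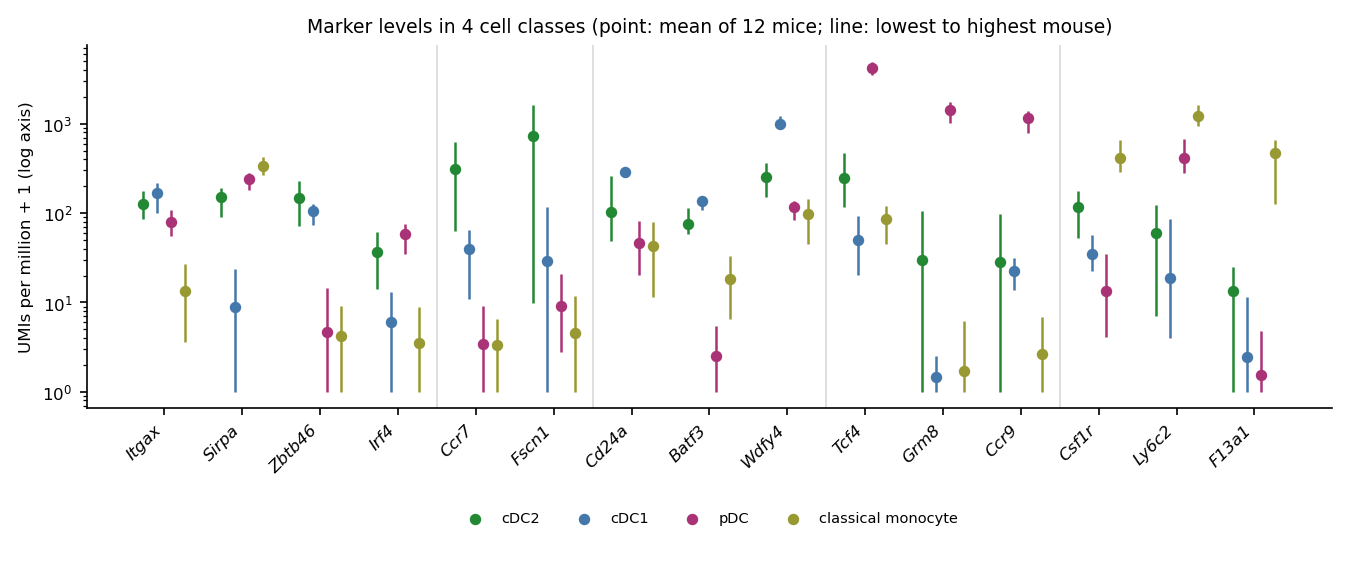
Levels of 15 genes that mark dendritic cells and monocytes in cDC2, cDC1, pDC and classical monocytes, as CPM plus 1 on a log axis. Points are means of 12 mice and lines run from the lowest to the highest mouse, and Sirpa and Irf4 sit lower in cDC1 than in cDC2 while Zbtb46 sits lowest in pDC and monocytes.

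Against cDC1, 2937 of 8062 tested genes differed in level (36.4%), of which 1505 were higher in cDC2 (18.7%) and 1432 lower (17.8%). Without scaling factors (TMM, trimmed mean of M-values) the split was 2011 higher and 1038 lower, and the median log2 difference of all tested genes moved from -0.0043 to 0.13. Of 20 tested cDC2 identity genes outside the rule, 15 were higher in cDC2 and 4 lower, with a median log2 difference of 2.64. Lectins and pattern receptors followed, with 16 of 20 higher and 2 lower, and 16 higher and 1 lower without scaling factors. In contrast, all 14 tested cDC1 genes were lower in cDC2 on either scale. The largest differences above 100 CPM were those of Zeb2, a transcription factor that favours cDC2 and monocyte fates, at a log2 difference of 4.94 ± 0.31, S100a4, a calcium-binding protein, at 4.80 ± 0.29, the chemokine Ccl9 at 4.62 ± 0.29 and Fscn1 at 4.58 ± 0.47, each with an edgeR adjusted p of at most 2.90e-08. The Fscn1 difference came from few cells, since 1936 of its 1967 UMIs lay in 84 of the 568 cDC2 and the other sets of cDC2 held 14.4 and 7.68 CPM, against 28.1 ± 32.6 in cDC1. On the other side stood Pianp at -5.01 ± 0.24, Itgae, which encodes CD103, at -4.44 ± 0.22 and Tlr3, a sensor of double-stranded RNA, at -3.53 ± 0.23.

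Maturation genes were also higher in the summed cDC2 than in cDC1, for Ccr7, Fscn1 and Ccl22 through a small part of the cells. Of 22 tested genes for costimulation and maturation, 19 were higher and 1 lower (19 and 1 without scaling factors), and their median log2 difference was 1.55. A mature cell without Xcr1 and Clec9a UMIs could count as cDC2 but not as cDC1, so the rules of the classes may set part of this contrast. Ccr7 stood at 311 ± 151 CPM in cDC2 and 39.2 ± 13.4 in cDC1, a log2 difference of 2.78 ± 0.20 (edgeR adjusted p = 9.23e-11). Of its UMIs in cDC2, 795 lay in 84 of the 568 cells, those with maturation genes and Flt3 as their only marker, whereas lectin-positive cDC2 (with Cd209a, Mgl2 or Clec10a) held 35.4 CPM over all mice together and the remaining cells 10.8. Ccl22 likewise stood at 641, 19.3 and 1.54 CPM in these 3 sets, and at 46.4 ± 21.3 in cDC1. Cd86, a ligand of the T cell receptor partner CD28, was at 586 ± 104 normalised CPM in cDC2 and 610.5 ± 105 in cDC1, a log2 difference of -0.05 ± 0.10 (edgeR adjusted p = 0.748). H2-Eb1, an MHC class II chain that the rule did not use, was lower in cDC2 than in cDC1, at a log2 difference of -0.45 ± 0.07 (edgeR adjusted p = 8.53e-06). Of 14 tested genes of the MHC class II pathway 6 were higher and 6 lower.

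Against pDC, 4279 of 7765 tested genes differed (55.1%), 2043 higher in cDC2 (26.3%) and 2236 lower (28.8%). Without scaling factors the split was 1663 to 2878, and the median log2 difference moved from -0.0609 to -0.22. The MHC class II pathway was higher in cDC2 for 11 of 12 tested genes, and the cell cycle list for 32 of 32 (30 without scaling factors). H2-Eb1 was higher by a log2 difference of 4.25 ± 0.12 and Mki67, a marker of cycling cells, by 2.19 ± 0.19 (edgeR adjusted p = 2.33e-18 and 4.64e-10). Ly75, an endocytic receptor, and Tnip3, an inhibitor of NF-kB signalling, were among the 6 largest differences, at 7.31 ± 0.30 and 9.08 ± 0.26. Of the Ly75 UMIs, however, 499 lay in the 84 cells with Flt3 alone and maturation genes, 13 in lectin-positive cDC2 and 8 in the rest. All 15 tested pDC genes were lower in cDC2, with Tcf4, the transcription factor that specifies pDC, at a log2 difference of -4.02 ± 0.17.

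Against classical monocytes, 3213 of 9326 tested genes differed (34.5%), 1429 higher in cDC2 (15.3%) and 1784 lower (19.1%). Identity genes were higher for 13 of 21 and lower for 6, and maturation genes higher for 20 of 22 and lower for 2. Of 43 tested interferon response genes 19 were lower in cDC2, 3 were higher and 21 did not pass the test, and 10 of 11 tested monocyte genes were lower. Mreg, a gene of vesicle transport, was higher in summed cDC2 by a log2 difference of 6.16 ± 0.28, with 605 of its UMIs in the same 84 cells, 9 in lectin-positive cDC2 and 2 in the rest. The scavenger receptor Msr1 was lower, at -5.40 ± 0.25. Lyz2, a lysozyme of monocytes and macrophages, was lower as well, at -4.03 ± 0.17 (edgeR adjusted p = 3.17e-14). In control mice alone, 1989 genes differed.

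The cDC2 were not uniform. They could be divided by which marker had admitted them and by whether they held at least 2 UMIs of Ccr7, Fscn1, Ccl22 and Cacnb3, a division chosen after the values were seen and given as description only. A total of 379 cells (66.7%) carried at least 1 UMI of Cd209a, Mgl2 or Clec10a, whereas 84 (14.8%) carried Flt3 alone with maturation genes and 105 (18.5%) Flt3 alone without them. The lectin-positive cells had a median MHC class II sum of 277 UMIs, against 118 and 156 in the other groups, at a median of 4158, 5269.5 and 5630 UMIs per cell. Doublets were called in 48.0% of the lectin-positive cells and in 61.9% of each group with Flt3 alone.

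The leading gene of lectin-positive cDC2 by ratio was Elane, a neutrophil protease, at 138 CPM with UMIs from 4 mice. Of the genes that followed, over all mice together, Tnip3 stood at 479 CPM against at most 53.2 in the other groups, Tnfsf9, the ligand of 4-1BB, at 643 against at most 83.0, and the lectin Clec4b1 at 109 against at most 7.68. Itgam, which encodes CD11b, was at 141, 4.26 and 33.8 CPM in the 3 groups. Each of Tnip3, Tnfsf9, Clec4b1 and Itgam, named after their values were seen, was found in lectin-positive cells of all 12 mice.

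Cells with Flt3 alone and maturation genes carried further genes of mature dendritic cells. Beside the genes that chose them, Ccl5, a chemokine for T cells, stood at 11298 CPM in them against 245 in lectin-positive cells and 118 in the remaining cells. Il12b, the shared subunit of IL-12 and IL-23, stood at 1361 CPM against 6.08 and 1.54, and Ly75 at 1063 against 7.18 and 12.3. Of these cells 9.52% held at least 2 UMIs of the 5 cycling genes Mki67, Top2a, Cdk1, Ccna2 and Birc5. Defining genes of the types went against the cDC2 label in these 84 cells. Irf4, a factor of cDC2, stood at 2.13 CPM against 47.0 in lectin-positive cells, with 1 UMI in all, and Sirpa at 66.0 CPM against 204. Irf8 and Batf3, factors of cDC1, stood at 322 and 136 CPM against 46.4 and 66.9, while Xcr1 and Clec9a were at 0 by the rule. These cells are therefore called by their markers, as Flt3-alone cells with maturation genes.

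The 105 cells with Flt3 alone and no maturation genes also went against the cDC2 label in part, with Irf4 at 23.1 CPM, Sirpa at 75.3 and Irf8 at 229. Of these, 43.8% held at least 2 UMIs of the cycling genes, compared with 23.2% of lectin-positive cells, and 45.7% held a UMI of the progenitor genes Cd34 or Kit, compared with 20.6%, without thinning and at the depths given above. These percentages pool the cells of all mice. The Cd34 or Kit percent was 32.1% against 40.5% of lectin-positive cells in anemia mouse 3, and 60.9% against 54.3% in anemia mouse 2. It was also lower than in lectin-positive cells in control mouse 1 and anemia mouse 5, and higher in the other mice. Leading genes were Satb1, a chromatin organiser, at 401 CPM against 54.7 in lectin-positive cells, Cdk6, a kinase of the cell cycle, at 278 against 50.8, and Hmga2, a chromatin protein of fetal progenitors whose UMIs came from 6 mice. Ppt1 and Ifi205, which are on the cDC1 list, were also among their 15 leading genes. These cells were thus Flt3-positive and MHC class II-positive by the rule, with no lectin UMI. They numbered 30 in controls (11.9% of cDC2) and 75 in anemia (23.7%), of which 23 were in anemia mouse 2 and 28 in anemia mouse 3.

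**Figure D2:**
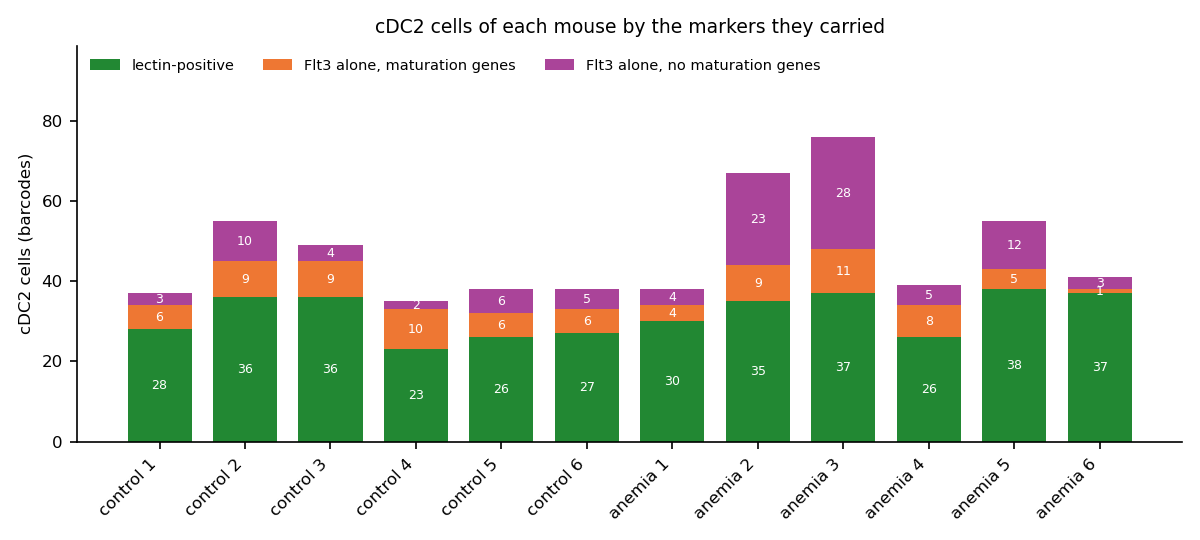
Number of cDC2 barcodes in each of the 12 mice, stacked by whether the cell carried a lectin UMI, Flt3 alone with maturation genes or Flt3 alone without them. Anemia mice 2 and 3 hold 23 and 28 cells with Flt3 alone and no maturation genes, and the other 10 mice hold 2 to 12.

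The share of cDC2 overlapped between groups. Per mouse, cDC2 numbered 35 to 55 cells in controls and 38 to 76 in anemia, and made up from 0.214 to 0.352% in controls (median 0.24%) and from 0.211 to 0.379% in anemia mice (median 0.288%) of kept cells. The groups overlapped, with the highest anemia values in mice 2 and 3. Means were 0.264 ± 0.054% in controls and 0.294 ± 0.0681% in anemia (n = 6 per group, exact two-sided permutation p = 0.396, adjusted over 5 share comparisons 0.66). Without the cells with Flt3 alone and no maturation genes, the difference, anemia minus control, was -0.00639 percentage points, as description with no test, since genes of the rule set these cells apart. With called doublets left out the means were 0.144 ± 0.0828% in controls and 0.164 ± 0.113% in anemia (exact permutation p = 0.738). Counting error alone spans a 95% exact binomial interval of 0.15 to 0.288% for the lowest share, that of anemia mouse 4.

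The denominator held different shares of red cell precursors. Cells with at least 10% hemoglobin UMIs made up 1.66 to 15.5% of kept cells in controls and 10.6 to 33.7% in anemia. With these cells out of the denominator, cDC2 made up 0.286 ± 0.0533% in controls and 0.386 ± 0.0866% in anemia (exact permutation p = 0.0455, unadjusted), and 4 of 6 anemia mice lay above all controls. This share counts the cells with Flt3 alone and no maturation genes, of which anemia mouse 2 held 23 and anemia mouse 3 held 28. As a share of kept cells with a UMI of the leukocyte gene Ptprc, the means were 0.659 ± 0.17% in controls and 0.794 ± 0.22% in anemia (exact permutation p = 0.219).

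Among dendritic cells the balance between types had wider values in anemia. The cDC2 share of cDC2, cDC1 and pDC together ran from 8.98 to 13.7% in controls (median 9.99%) and from 9.31 to 20.4% in anemia mice (median 14.4%). Of the 6 anemia mice, 3 lay above every control and the others overlapped with them (means 10.7 ± 1.96% in controls and 14.6 ± 4.75% in anemia, exact permutation p = 0.119, adjusted over 5 share comparisons 0.298). With called doublets left out the means were 5.73 ± 2.91% in controls and 8.26 ± 5.20% in anemia (exact permutation p = 0.32). The cDC1 share of kept cells was 0.927 ± 0.0762% in controls and 0.731 ± 0.18% in anemia (exact permutation p = 0.0368, unadjusted). Its denominator includes the hemoglobin-rich cells, 1.66 to 15.5% of kept cells in controls and 10.6 to 33.7% in anemia. A cDC1 share without them in the denominator was not tested. The number of cDC2 per 100 cDC1 was 28.4 ± 5.30 in controls and 42.6 ± 15.1 in anemia (exact permutation p = 0.0563, unadjusted).

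**Figure D3:**
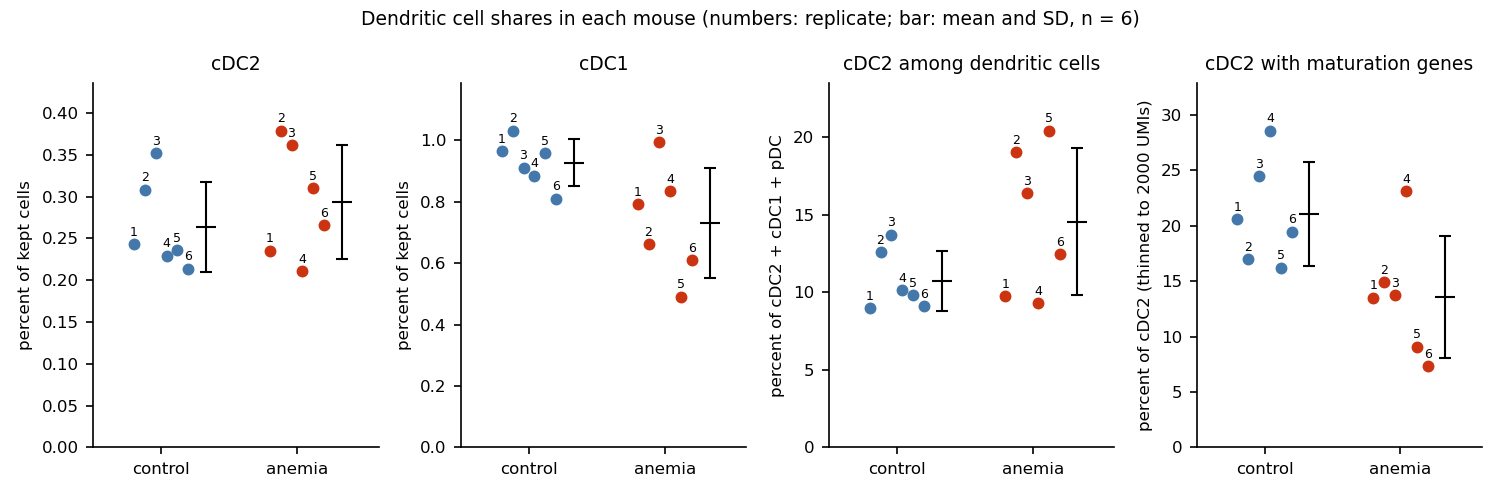
Shares of cDC2 and cDC1 among kept cells, of cDC2 among dendritic cells, and of cells with maturation genes, most with Flt3 alone, among those chosen as cDC2, in percent. Each numbered point is a mouse and the bar is the mean and SD of 6 mice; cDC2 shares overlap between groups, and 5 of 6 anemia mice lie below all controls in the last panel.

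The share of cells chosen as cDC2 that carried maturation genes had a lower mean in anemia, a difference that did not pass correction for the number of comparisons. Of the cells with maturation genes before thinning, 84 carried Flt3 alone, with the low Irf4 and Sirpa and high Irf8 given for them, and 27 carried a lectin. To compare mice at equal depth, each cDC2 was thinned to 2000 UMIs, which left out 16 shallower cells. A cDC2 with at least 2 of Ccr7, Fscn1, Ccl22 and Cacnb3 UMIs then made up from 16.2 to 28.6% in controls (median 20.0%) and from 7.32 to 23.1% in anemia mice (median 13.6%) of cDC2. All anemia mice but mouse 4 lay below the lowest control. Means were 21.0 ± 4.71% in controls and 13.6 ± 5.50% in anemia (exact two-sided permutation p = 0.0346, adjusted over 5 share comparisons 0.173). Leaving out single mice gave exact permutation p-values from 0.00433 to 0.0693. Without thinning the difference was -7.22 percentage points (exact permutation p = 0.0671).

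The direction of this difference depended on which cells counted. With called doublets left out it was 7.81 percentage points (exact permutation p = 0.219). That setting left only 5 cDC2 in anemia mouse 4 and 8 in control mouse 5, so single cells weigh heavily in its shares. Doublets were called in 73.9% of the control cells with Flt3 alone and maturation genes and in 47.4% of those in anemia. Among cDC2 with a Flt3 UMI the share was 33.6 ± 7.80% in controls and 17.3 ± 6.57% in anemia, which is given as description with no test, since Flt3 is a gene of the rule and the alternative was chosen after the data were seen. In further alternatives chosen then, cells chosen as cDC2 that held maturation genes, as a percent of kept cells, gave -0.0145 percentage points (exact permutation p = 0.26). When the Flt3 and lectin condition was dropped altogether, 29 to 66 control and 21 to 116 anemia cells per mouse carried maturation genes, and the difference was 0.00838 percentage points of kept cells (exact permutation p = 0.957). The largest value in that count belonged to anemia mouse 2.

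The differences in other subsets of cDC2 did not pass the threshold. Cycling cells made up from 9.43 to 27.0% in controls (median 16.2%) and from 12.7 to 28.8% in anemia mice (median 15.9%), with overlap (means 17.6 ± 6.41% in controls and 18.7 ± 6.35% in anemia, exact permutation p = 0.751). Cells with at least 2 UMIs of the monocyte genes Ly6c2, Fcgr1, Vcan and F13a1 made up from 0 to 8.82% in controls (median 5.53%) and from 2.56 to 7.32% in anemia mice (median 3.87%) (means 4.90 ± 3.08% in controls and 4.34 ± 1.76% in anemia, exact permutation p = 0.699). Before thinning, the latter share was 6.78 ± 5.06% in controls and 11.6 ± 5.21% in anemia (exact permutation p = 0.126).

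Expression in cDC2 was then compared between groups on UMIs summed per mouse. Unless stated, genes other than the most abundant of each list were chosen after their values were seen. No gene of 5925 tested passed a Benjamini-Hochberg adjusted p of 0.05 in edgeR's quasi-likelihood test (0%), nor in limma voom, whereas DESeq2 called 29 (8 higher and 21 lower in anemia). At an unadjusted p below 0.05 edgeR gave 547 genes (9.23%), 238 with higher values in anemia (4.02%) and 309 with lower (5.22%). The counts of each list below are to be read beside these shares. Counts of this depth were simulated with genes of 2 sizes of change at once. The test recovered 97 of 100 with a log2 fold change of 2 and 51 of 100 with 1. With fewer changed genes the adjusted threshold is harder to pass, so these rates need not hold for the measured data. Leaving out anemia mouse 4 gave 15 calls (3 higher, 12 lower), and leaving out any other mouse gave none. Gene values below are therefore differences that did not pass the adjusted threshold, in normalised CPM (here scaled to the tested genes' UMIs after TMM factors).

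Levels of the genes that chose the cells overlapped between groups and are given as description. Cd209a ranged from 468 to 802 normalised CPM in the 6 controls (median 583) and 224 to 1066 in the 6 anemia mice (median 741). Flt3 ranged from 297 to 357 normalised CPM in the 6 controls (median 328) and 168 to 396 in the 6 anemia mice (median 313), and H2-Ab1 from 2075 to 3432 normalised CPM in the 6 controls (median 2439.6) and 1332 to 2874 in the 6 anemia mice (median 2358). In each of these genes the lowest of the 12 mice was an anemia mouse. Mgl2 ranged from 48.6 to 238 normalised CPM in the 6 controls (median 149.6) and 54.6 to 249 in the 6 anemia mice (median 177), and Clec10a from 112 to 245 normalised CPM in the 6 controls (median 152) and 59.1 to 346 in the 6 anemia mice (median 143).

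Identity genes that the rule did not use gave counts near the shares of all tested genes. Of 20 tested identity genes outside the rule, none had higher and 1 had lower values in anemia at an unadjusted p below 0.05. Over all tested genes 4.02% had higher and 5.22% lower values at that level. The median log2 fold change of the identity genes was 0.00957, compared with 0.0216 over all tested genes. The gene with lower values was Zbtb46, at 189 to 256 normalised CPM in the 6 controls (median 209) and 82.7 to 295 in the 6 anemia mice (median 126) (log2 fold change -0.53 ± 0.24, edgeR adjusted p = 0.522). Zbtb46 was highest in cells with Flt3 alone and maturation genes, at 283 CPM against 126 in lectin-positive and 73.8 in the remaining cells, and its log2 fold change was -0.30 with maturation cells left out and -0.82 without anemia mouse 4. Sirpa ranged from 112 to 230.1 normalised CPM in the 6 controls (median 186) and 161 to 216 in the 6 anemia mice (median 182) and the lysosomal protease gene Napsa from 475 to 673 normalised CPM in the 6 controls (median 591) and 437 to 816 in the 6 anemia mice (median 657), with overlap.

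Antigen presentation genes passed the unadjusted threshold at counts that such short lists cannot set apart from the shares of all tested genes. Over all tested genes 4.02% had higher and 5.22% lower values at an unadjusted p below 0.05. Of 13 tested genes of the MHC class II pathway, 1 had higher values in anemia at that level and none lower, with a median log2 fold change of 0.0837. H2-Eb1 ranged from 3551 to 4975 normalised CPM in the 6 controls (median 3638) and 2732 to 5007 in the 6 anemia mice (median 4041). Ctss, the protease that trims the invariant chain, ranged from 629 to 778 normalised CPM in the 6 controls (median 682) and 744 to 852 in the 6 anemia mice (median 828) (log2 fold change 0.24 ± 0.12, edgeR adjusted p = 0.559), and 1 anemia mouse fell within the control range. Its log2 fold change was 0.049 with maturation cells left out. Of 14 tested genes of the MHC class I pathway 2 had lower values, among them H2-D1 at a log2 fold change of -0.31 ± 0.13 (edgeR adjusted p = 0.465). That difference was 0.0106 with called doublets left out.

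Genes for costimulation and maturation had mostly lower values in anemia. Of 23 tested, 10 had lower values at an unadjusted p below 0.05 and none higher, and the median log2 fold change was -0.51. Of all tested genes 5.22% had lower values at that level. The 10 genes included the 4 that defined the maturation share, so these counts and that share rest on the same UMIs. Fscn1 ranged from 719.7 to 2025 normalised CPM in the 6 controls (median 1305) and 10.8 to 869 in the 6 anemia mice (median 635), a log2 fold change of -1.36 ± 0.48 (edgeR adjusted p = 0.374). Ccr7 ranged from 304 to 785 normalised CPM in the 6 controls (median 479) and 75.8 to 471 in the 6 anemia mice (median 250.2), a log2 fold change of -0.98 ± 0.29 (edgeR adjusted p = 0.279). For both, the groups overlapped while the anemia median lay below that of controls, and the lowest anemia values belonged to a mouse with 1 cell of Flt3 alone and maturation genes (anemia mouse 6).

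The calcium channel subunit gene Cacnb3, by contrast, did not overlap, at 67.6 to 131 normalised CPM in the 6 controls (median 100.2) and 0 to 63.7 in the 6 anemia mice (median 31.5) (log2 fold change -1.37 ± 0.38, edgeR adjusted p = 0.222), but its log2 fold change was 0.14 with called doublets left out. Ccl22, a chemokine for Ccr4-bearing T cells, ranged from 98.8 to 823 normalised CPM in the 6 controls (median 142) and 2.95 to 152 in the 6 anemia mice (median 50.6), with 1 control far above the rest (log2 fold change -2.02 ± 0.61, edgeR adjusted p = 0.279), and without that control, mouse 4, the log2 fold change was -1.20. Il12b ranged from 308 to 767 normalised CPM in the 6 controls (median 386) and 10.8 to 636 in the 6 anemia mice (median 128), and 1 anemia mouse stood above its group (log2 fold change -1.33 ± 0.57, edgeR adjusted p = 0.49), and without that mouse, anemia mouse 4, the log2 fold change was -2.27. Nfkb1, an NF-kB subunit and the most abundant tested gene of the list, was at 1397 and 1396 normalised CPM (means of controls and anemia mice). Cd86 had a positive log2 fold change of 0.30 ± 0.15 (edgeR adjusted p = 0.564). With called doublets left out the log2 fold change of Ccr7 was -0.20, that of Fscn1 -0.70 and that of Cd86 0.16.

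Leaving out cells by their maturation genes removes part of the measured difference by construction, so the values without them are a description. With cDC2 that held maturation genes left out, 13 genes of the list were still tested, none had an unadjusted p below 0.05, and the median log2 fold change was 0.0975. Over all genes of that fit, 329 of 5229 had such a p, in either direction. With cells of Flt3 alone left out, 14 were tested, 2 had higher and none lower values, and the median was 0.0794, beside 268 of 4327 genes in either direction. Genes of the rule set those cells apart, so these values too are a description. In lectin-positive cells alone Ccr7 differed by 0.0537 on the log2 scale and Ccl5 by 0.96, compared with -0.98 ± 0.29 and -0.99 ± 0.58 over all cDC2.

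Interferon response genes had mostly higher values in anemia, and the median difference was smaller without 1 mouse. Of 32 tested, 7 had higher values at an unadjusted p below 0.05 and none lower, 31 had a positive log2 fold change, and the median was 0.50. Of all tested genes 4.02% had higher values at that level. Without anemia mouse 2, 29 were tested, 5 had higher values and none lower, 19 had a positive log2 fold change, and the median was 0.0895. Over all genes of that fit, 466 of 5721 had an unadjusted p below 0.05, in either direction. Leaving out any other mouse gave medians between 0.48 and 0.65, and 5 to 13 genes with higher values, the most without control mouse 2 (12) or anemia mice 4 (11) or 6 (13). Those fits gave from 425 of 5719 genes (without anemia mouse 3) to 661 of 5965 (without anemia mouse 4) in either direction. Ifitm3, a membrane protein that blocks viral entry, ranged from 720.0 to 1062 normalised CPM in the 6 controls (median 859.6) and 772 to 1944 in the 6 anemia mice (median 1340.0) (log2 fold change 0.62 ± 0.19, edgeR adjusted p = 0.293), and its log2 fold change was 0.23 with called doublets left out. Ifih1, a cytosolic RNA sensor, was the list's gene without overlap, at 6.17 to 41.3 normalised CPM in the 6 controls (median 24.2) and 47.3 to 69.7 in the 6 anemia mice (median 60.7) (log2 fold change 1.23 ± 0.31, edgeR adjusted p = 0.208). The control sums held 155213 to 249152 UMIs, so the control values of Ifih1 rest on few UMIs per mouse. This gene and those that follow were chosen after their values were seen. Ifit3 had a log2 fold change of 1.89 ± 0.62 and Oasl2 of 1.16 ± 0.41, with leave-one-out ranges of 1.42 to 2.37 and 0.90 to 1.62.

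Several glycolytic genes had higher values in anemia as well. Of 25 tested genes for hypoxia and glycolysis, 7 had higher values at an unadjusted p below 0.05 and 1 lower, with a median log2 fold change of 0.37. The shares over all tested genes were 4.02% higher and 5.22% lower. Gapdh ranged from 1645 to 2579.9 normalised CPM in the 6 controls (median 1981) and 2129.5 to 4272 in the 6 anemia mice (median 2514) (log2 fold change 0.45 ± 0.18, edgeR adjusted p = 0.454, and 0.29 without anemia mouse 2). Pgam1, a later enzyme of glycolysis, ranged from 64.8 to 153 normalised CPM in the 6 controls (median 110.2) and 121 to 279 in the 6 anemia mice (median 183) (log2 fold change 0.82 ± 0.23, edgeR adjusted p = 0.222). The groups overlapped for both. The gene with lower values was Bhlhe40, a transcription factor induced by hypoxia and by activation, at a log2 fold change of -0.46 ± 0.17 (edgeR adjusted p = 0.419), and -0.21 with called doublets left out. Hif1a, the hypoxia-sensing transcription factor, had means of 126 and 122 normalised CPM. Without anemia mouse 2, 1 gene of the list had higher values and 1 lower, and the median was 0.27, beside 466 of all 5721 genes in either direction. Without control mouse 4, 3 genes had higher values and the median was 0.24, and 4 had higher values without control mouse 2 or 5 or anemia mouse 1 or 6.

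**Figure D4:**
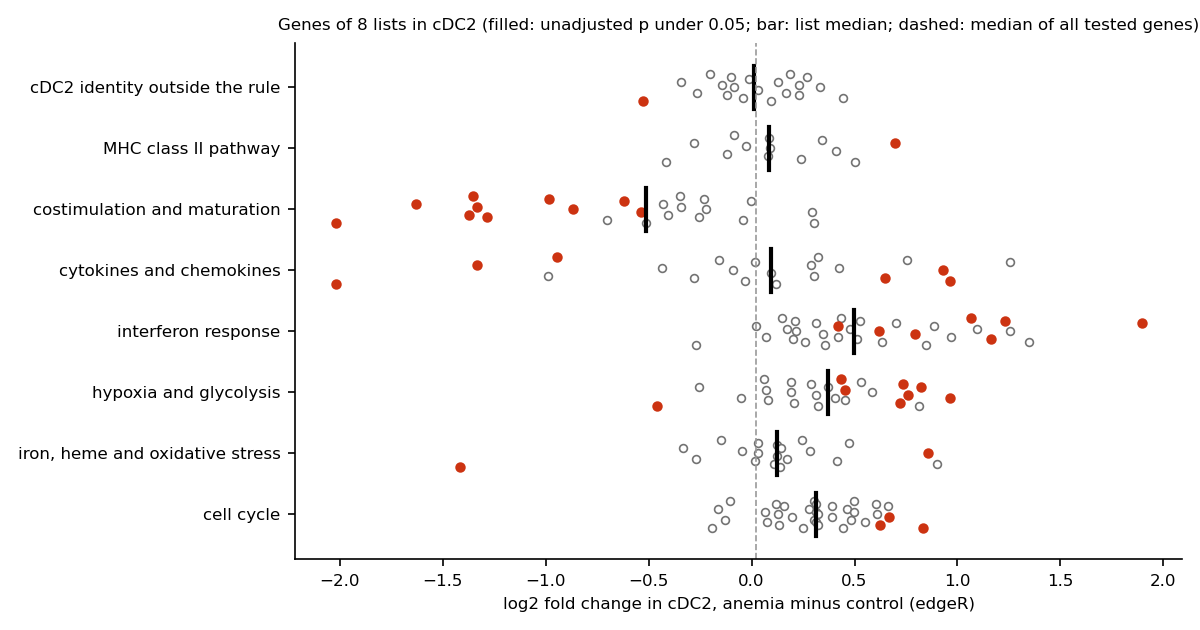
Log2 fold changes, anemia minus control, of the tested genes of 8 lists in cDC2, with filled points at an unadjusted edgeR p below 0.05, a bar at each list's median and a dashed line at the median of all tested genes. The maturation list sits to the left, with a median of -0.51, and the interferon and glycolysis lists to the right, with 0.50 and 0.37.

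Cytokine genes had both higher and lower values in anemia. Of 21 tested, 3 had higher and 3 lower values at an unadjusted p below 0.05, beside 4.02% higher and 5.22% lower of all tested genes. Tnf, a cytokine of activated myeloid cells, ranged from 88.5 to 228 normalised CPM in the 6 controls (median 130.2) and 51.1 to 100.4 in the 6 anemia mice (median 80.1) (log2 fold change -0.95 ± 0.25, edgeR adjusted p = 0.21). Il1b ranged from 436 to 790.0 normalised CPM in the 6 controls (median 534) and 342 to 1054 in the 6 anemia mice (median 803) (log2 fold change 0.42 ± 0.23, edgeR adjusted p = 0.618), and Ccl4, a chemokine for monocytes and T cells, from 96.5 to 584 normalised CPM in the 6 controls (median 358) and 452 to 725 in the 6 anemia mice (median 619) (log2 fold change 0.65 ± 0.27, edgeR adjusted p = 0.486), with a log2 fold change of Ccl4 of 0.35 with called doublets left out. All 3 overlapped between groups. Of 26 tested receptors for growth factors and chemokines 2 had higher and 1 lower values, among them Il1r2, the decoy receptor for IL-1, at 113 to 212 normalised CPM in the 6 controls (median 138) and 162 to 301 in the 6 anemia mice (median 242) (log2 fold change 0.67 ± 0.19, edgeR adjusted p = 0.222). Of 18 tested lectins and pattern receptors none had higher and 1 had lower values.

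Among 19 tested transcription factors of dendritic cell development 3 had lower values and none higher at an unadjusted p below 0.05. Of all tested genes 5.22% had lower values at that level. Irf8, which sustains cDC1 and pDC, ranged from 163 to 267 normalised CPM in the 6 controls (median 203) and 57.6 to 193 in the 6 anemia mice (median 127) (log2 fold change -0.71 ± 0.25, edgeR adjusted p = 0.374). With called doublets left out its log2 fold change was -0.34. Without cells that held maturation genes its difference was 0.19. Rel and Zeb2, the most abundant factors of the list, stood at 1602 and 1547 normalised CPM in controls and 1345 and 1357 in anemia.

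Few genes of iron and stress responses passed the unadjusted threshold. Of 20 tested genes for iron, heme and oxidative stress, 1 had higher and 1 lower values at an unadjusted p below 0.05. That is close to the shares over all tested genes, 4.02% higher and 5.22% lower. The ferritin genes Fth1 and Ftl1, which store iron and were the most abundant of the list, had means of 7628 and 4178 normalised CPM in controls and 8394 and 3468 in anemia. Mt1, a metallothionein, ranged from 183 to 506 normalised CPM in the 6 controls (median 311) and 409 to 769 in the 6 anemia mice (median 565) (log2 fold change 0.85 ± 0.22, edgeR adjusted p = 0.208), with overlap and a log2 fold change of 0.49 with called doublets left out. It belongs to the glucocorticoid list, of which 3 of 12 tested genes had higher values and none lower. Of 26 tested immediate early and heat shock genes none had higher and 2 had lower values.

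Cell cycle genes had mostly positive differences in anemia. Of 34 tested, 3 had higher and none lower values at an unadjusted p below 0.05, 30 had a positive log2 fold change, and the median was 0.31. Of all tested genes 4.02% had higher values at that level. Genes of the rule set the Flt3-alone cells apart, and they were chosen after the data were seen, so values without them are description only. With the Flt3-alone cells left out 28 were tested, 10 had a positive log2 fold change, and the median was -0.11. Leaving out anemia mouse 3 gave a median of 0.19 and control mouse 2 one of 0.21. Rrm2, a subunit of ribonucleotide reductase, did not overlap between groups, at 56.7 to 112 normalised CPM in the 6 controls (median 99.7) and 115 to 211 in the 6 anemia mice (median 143) (log2 fold change 0.67 ± 0.20, edgeR adjusted p = 0.279), but its log2 fold change was 0.0509 with the Flt3-alone cells left out, 0.11 without cells with monocyte genes and 0.29 without cells with neutrophil genes.

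Genes whose groups did not overlap were then listed. A total of 35 of 5925 genes had no overlap between the 6 control and 6 anemia values (0.591%), 19 with higher values in anemia (0.321%) and 16 with lower (0.270%). Rasa2, a Ras GTPase-activating protein, ranged from 165 to 256 normalised CPM in the 6 controls (median 218) and 57.6 to 136 in the 6 anemia mice (median 92.2), a log2 fold change of -1.15 ± 0.21 and the smallest p of all genes (edgeR adjusted p = 0.142). It was also a gene of mature cells, at 396 CPM in cells with Flt3 alone and maturation genes against 57.5 in lectin-positive cells, and its log2 fold change was 0.0893 with maturation cells left out. Clic4, a chloride channel protein, ranged from 749.7 to 888 normalised CPM in the 6 controls (median 778) and 458 to 676 in the 6 anemia mice (median 572) (log2 fold change -0.52 ± 0.13, edgeR adjusted p = 0.208). Cmc2, a mitochondrial assembly protein, had a log2 fold change of -1.41 ± 0.27 and Slc44a1, a choline transporter, of -1.06 ± 0.24. These 3 genes were also highest in cells with Flt3 alone and maturation genes, where Clic4 stood at 1148 CPM, Cmc2 at 351 and Slc44a1 at 204, against 464, 29.8 and 34.8 in lectin-positive cells. With maturation cells left out their log2 fold changes were -0.14, -0.28 and -0.12.

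On the higher side Psmd6, a proteasome subunit, ranged from 22.3 to 37.4 normalised CPM in the 6 controls (median 33.1) and 53.5 to 96.5 in the 6 anemia mice (median 68.8) (log2 fold change 1.14 ± 0.25, edgeR adjusted p = 0.172), and 0.73 with the Flt3-alone cells left out. Necap1, an endocytosis protein, ranged from 7.42 to 18.7 normalised CPM in the 6 controls (median 13.4) and 28.4 to 86.5 in the 6 anemia mice (median 46.3) (log2 fold change 1.95 ± 0.39, edgeR adjusted p = 0.142). Pf4, a chemokine of megakaryocytes and platelets, ranged from 0 to 31.2 normalised CPM in the 6 controls (median 11.8) and 32.9 to 258 in the 6 anemia mice (median 77.4) (log2 fold change 2.79 ± 0.64, edgeR adjusted p = 0.172). These genes were chosen after their values were seen, for the lack of overlap. The control sums held 155213 to 249152 UMIs, so the control values of Necap1 and Pf4 rest on a few UMIs per mouse. Zc3h12c and Atp2b1 also had unadjusted p-values among the smallest, with log2 fold changes of -1.60 ± 0.33 and -0.74 ± 0.15 and overlap between groups. Zc3h12c was highest in cells with Flt3 alone and maturation genes as well, at 790.1 CPM against 108 in lectin-positive cells, and its log2 fold change was -1.45 with maturation cells left out and -0.43 with called doublets left out. That of Atp2b1 was -0.49 with maturation cells left out.

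**Figure D5:**
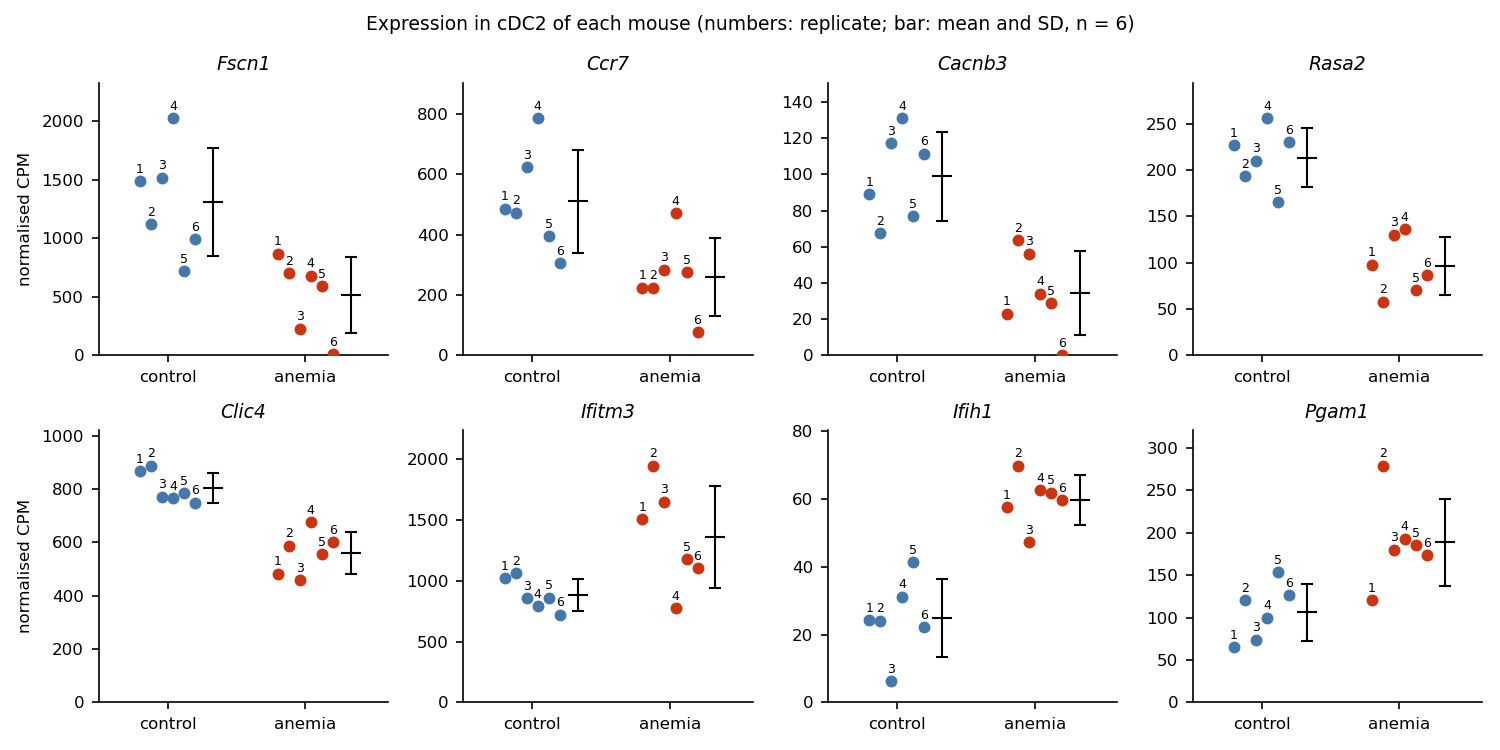
Normalised CPM of 8 genes in the cDC2 of each mouse, with numbered points for mice and bars for mean and SD of 6 mice. Cacnb3, Rasa2 and Clic4 lie lower and Ifih1 higher in every anemia mouse than in any control, whereas Fscn1, Ccr7, Ifitm3 and Pgam1 overlap.

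RNA of other cell types was present in the cDC2 sums and differed between mice. The 28 hepatocyte genes, of which 27 had UMIs and only Mup3 was at 0, summed to 2847 to 21731 CPM in controls and 893 to 7827 in anemia, and 8 of 23 tested had lower values and 1 higher at an unadjusted p below 0.05. Alb, for example, had a log2 fold change of -1.20 ± 0.40 (edgeR adjusted p = 0.321). The 17 neutrophil genes, none at 0, summed to 19.3 to 3799 CPM in controls and 113 to 14557 in anemia. Most of this came from 8 cells with at least 10 UMIs of S100a8, S100a9, Ngp and Elane, 1 in control mouse 3 and 7 in anemia mice. Without them the sums were 19.3 to 98.7 CPM in controls and 57.7 to 464 in anemia, where 4 of 6 mice lay above all controls. The 20 erythroid genes, of which only Hbb-y was at 0, summed to 391 to 15304 CPM in controls and 675 to 50026 in anemia, and leaving out 13 cells with at least 10% hemoglobin brought the highest mouse to 2312.

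Monocyte RNA, with all 16 genes found, summed to 1367 to 2569 CPM in controls and 1393 to 3722 in anemia, and 2 of 12 tested genes had higher values. Ms4a6c, a monocyte membrane protein, had a log2 fold change of 0.51 ± 0.16 (edgeR adjusted p = 0.294), and 0.34 with maturation cells left out. The progenitor, basophil and megakaryocyte list, with 13 of 16 genes found and Mcpt8, Prss34 and Fcer1a at 0, summed to 42.2 to 233 CPM in controls and 158 to 613 in anemia, and 3 of its 4 tested genes had higher values in anemia, Pf4 and Kit among them. The part of this RNA in the differences above was not tested. In alternatives chosen after the data were seen, leaving out the cells with neutrophil genes gave 11 of 32 tested interferon genes with higher and 10 of 23 maturation genes with lower values at an unadjusted p below 0.05, beside 216 higher and 290 lower of 5812 tested genes. Leaving out the hemoglobin-rich cells gave 7 of 31 and 9 of 23, with 1 maturation gene higher, beside 222 higher and 267 lower of 5814.

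The remaining lists had few tested genes. Over all tested genes 4.02% had higher and 5.22% lower values at an unadjusted p below 0.05. Of 3 tested macrophage genes and 2 tested T and NK genes (Ccl5 among them) none had an unadjusted p below 0.05, and of 10 pDC genes and 9 cDC1 genes 1 each had lower values. Of 5 tested B lineage genes 2 had lower values, of 9 endothelial and stellate genes 1 had higher values, and of 21 tested genes from the study's own monocyte lists 3 had higher values. The study chose the latter on these same mice, so they are not independent evidence of a direction. The T and NK list, which holds Ccl5 and had all 17 genes found, summed to 1766 to 5196 CPM in controls and 105 to 2681 in anemia, and 4 of 6 anemia mice lay below all controls. Most of this sum was Ccl5, with 5305 UMIs in the 84 cells with Flt3 alone and maturation genes, 444 in lectin-positive cells and 77 in the rest. The sum thus rests mainly on those 84 cells and is not a separate measure of T and NK cell RNA. Summed cDC1 RNA ranged from 940.1 to 1280.3 CPM in controls and 693 to 1419 in anemia, with 2 anemia mice above and 3 below all controls, summed pDC RNA from 526 to 1501 CPM in controls and 584 to 1329 in anemia, and endothelial and stellate RNA from 275 to 3326 CPM in controls and 269.7 to 2193 in anemia. Summed macrophage RNA ranged from 178 to 277 CPM in controls and 151 to 252 in anemia, and summed B lineage RNA, with only Vpreb1 at 0, from 139 to 468 and 126 to 337.

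Finally, the change in cDC2 was set against that in cDC1 and monocytes of the same mice. No gene of 8062 passed the edgeR test of the difference in change between cDC2 and cDC1 (0%). Of the 8052 outside the cDC2 rule, 485 had an unadjusted p below 0.05. Leaving out 1 mouse gave 5 calls without control mouse 3, 1 without anemia mouse 5 and none otherwise. Mid1, a ubiquitin ligase, went from 107 ± 54.7 CPM in controls to 121 ± 58.0 in anemia in cDC2 and from 89.2 ± 70.6 to 39.9 ± 16.7 in cDC1 (edgeR adjusted p = 0.26). Rasa2 stood at 172 ± 23.5 and 79.0 ± 25.1 CPM in cDC2 and at 42.7 ± 10.5 and 39.6 ± 6.38 in cDC1 (difference of log2 changes -0.99 ± 0.24, edgeR adjusted p = 0.358).

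Against monocytes none of 9326 genes passed the same edgeR test (0%). Of the 9316 outside the cDC2 rule, 826 had an unadjusted p below 0.05. Leaving out anemia mouse 4 gave 50 calls, anemia mouse 1 or 5 gave 1 each, and any other mouse none. Psmd6 stood at 25.0 ± 5.05 and 57.7 ± 10.7 CPM in cDC2 of control and anemia mice and at 63.5 ± 19.2 and 40.9 ± 7.90 in monocytes, a difference of log2 changes of 1.70 ± 0.31 (edgeR adjusted p = 0.0795). Pltp, a phospholipid transfer protein, stood at 142 ± 92.4 and 69.7 ± 37.2 CPM in cDC2 and at 9.31 ± 4.36 and 22.8 ± 14.5 in monocytes, a difference of -2.25 ± 0.41 (edgeR adjusted p = 0.0795).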

How the data were processed

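Cells of 12 dissociated livers (6 control and 6 PIA mice) were profiled on the 10x platform. The authors made the deposited counts with Cell Ranger 7.0.0 on mm10, and each file holds raw UMI counts per gene and barcode of 1 mouse. The labels name the v2 protocol of the kit and the study's text v3.1. The study kept cells of 500 to 50000 UMIs with at most 50% mitochondrial UMIs, and 20% was used here.

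The rule, the gene lists and the named genes were chosen with earlier results of these data known. UMIs of cDC2, cDC1, pDC and monocytes were summed per mouse. Genes averaging 5 UMIs or more over the mice, without mitochondrial and ribosomal protein genes, were tested with edgeR 4.0.16 (quasi-likelihood test, TMM factors, Benjamini-Hochberg threshold of 0.05) in R 4.3.3, with the mouse as a block between classes and in tests of a difference in change. Shares per mouse were compared by an exact two-sided permutation test, whose smallest p with 6 against 6 is 0.00216, adjusted over 5 shares. Mice are the replicates, and intervals cover counting error only. Subsets were called after thinning each cell to 2000 UMIs. Doublets were called per library with scrublet in scanpy 1.11.5, at 0.8% per 1000 cells, and kept.

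Named genes were those of the rule, called members of each list (where none was called, the 2 with the highest mean level), called genes without overlap of at least 20 CPM, up to 6 genes per direction of at least 100 CPM in the higher class with the largest differences between classes, and up to 6 per direction with the smallest p in tests of a difference in change. Further genes were chosen after their values were seen. Alternatives were DESeq2 1.42.0, voom in limma 3.58.1, no TMM factors, other filters and marker or mitochondrial limits, sex of the RNA as a covariate, doublets or subsets left out, a replicate block and leaving out each mouse. The edgeR test was tested on simulated data of 5925 genes with the cDC2 depths, and 2 unchanged genes were called.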

Additional observations from a re-analysis of the deposited data

Results flagged for a closer look

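A sample far from the other 5 of its group was looked for in 128 groups of 6 values by Dixon's criterion, and 11 groups held one, where chance gives about 5%. The median depth of cDC2 in controls was one, with control mouse 4 at 5404 UMIs per cell and the next control at 4131.5, and so was the median number of genes per cDC2, at 2060 in the highest control and 1725 in the next. Among cDC2 genes, in normalised CPM, Ccl22 reached 823 in 1 control, with the next at 218. In anemia, 1 mouse each stood apart at 636 for Il12b, at 307 for Zc3h12c, at 258 for Pf4 and at 267 for Tpi1, all above the rest of the group, while for Ctss 1 anemia mouse stood below the rest at 744. H2-Ab1 reached 3432 in 1 control, as a description of a gene the rule used. S100a8 reached 1469 in 1 control and 5949 in 1 anemia mouse, and was at most 22.3 in the other controls.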

How the results depend on the processing

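Each mouse gave 35 to 76 cDC2. In simulated counts with many genes changed at once, 51 of 100 with a log2 fold change of 1 were called. That rate need not hold for the measured data. A doublet caller marked many cDC2, and leaving its calls out left 5 to 46 per mouse. The classes were set from UMIs of the same cells, and the cell sets with Flt3 alone were chosen after the data were seen. Leaving out maturation cells, the percent of kept cells and the dropped marker condition were also chosen then.

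Differences in share are anemia minus control in percentage points, with exact permutation p-values. The share of cycling cDC2 cells turned from 1.09 to -2.28 with called doublets left out, and ranged from -0.917 to 2.98 as single mice were left out. The share of cells with maturation genes among those chosen as cDC2, most of them with Flt3 alone, was -7.44, and -7.22 without thinning. It was 7.81 with called doublets left out, -0.0145 as a percent of kept cells and 0.00838 with the marker condition dropped. As description only, it was -16.3 among cells with a Flt3 UMI. Leaving out single mice gave -9.33 to -5.93, with p at most 0.05 in 5 of 12. The share of cDC2 cells with monocyte genes turned from -0.566 to 4.86 without thinning, 0.727 at 1000 UMIs and 4.54 at 1 UMI or more, and ranged from -1.55 to 0.218 without single mice. The share of cDC2 cells was 0.0302, 0.101 without hemoglobin-rich cells in the denominator, -0.00612 with all cells thinned to 1000 UMIs and -0.00639 without cells of Flt3 alone and no maturation genes. It ranged from 0.0131 to 0.0477 without single mice, and the cDC2 share of conventional and plasmacytoid dendritic cells from 2.66 to 4.88.

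In place of 0 genes, DESeq2 called 29 in cDC2 (2185 genes had no adjusted p), an edgeR test without a filter on low counts 188 of 17071, a marker sum of at least 3 gave 10, and single mice left out 0 to 15. Voom called 0, with 574 at an unadjusted p below 0.05, and sex of the RNA (male in 2 control and 4 anemia mice) as a covariate gave 0, with 456. The tests of a difference in change gave 0 to 5 calls against cDC1 and 0 to 50 against monocytes without single mice. Between classes, 1896 genes differed from cDC1 in anemia mice alone and 1989 from monocytes in control mice alone, where fewer mice entered. Of the named genes, Ccr7 turned to 0.0537 and Ccl5 to 0.96 on the log2 scale with cells of Flt3 alone left out, Ccl5 to 0.50, Rasa2 to 0.0893 and Irf8 to 0.19 with maturation cells left out, and Cacnb3 to 0.14, H2-D1 to 0.0106 and Hbb-bs to -0.0894 with called doublets left out. Over 43 named genes and their alternatives, 1200 of 1262 values kept their direction and their side of the threshold, 54 passed the threshold and 8 turned. Except where stated, the cause was not tested.

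The replicate numbers of both groups come from the labels, which tie them to no litter or day. Correlations of deviations between mice of the same number ran from -0.0213 to 0.182, and 3 of 6 correlated best with their own number. On sums of so few cells per mouse, this cannot decide whether the numbers pair the mice. With a replicate block, 34 genes (12 higher and 22 lower) were called in cDC2, and sign-flip p-values, exact over the pairs, were 0.03125 for the share of cDC2 cells with maturation genes, 0.1875 for the share of cDC2 cells and 0.09375 for the cDC2 share of conventional and plasmacytoid dendritic cells.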
